A study of Mus musculus with 6 samples.

Results

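The 38 genes described here carry cells through G2 and mitosis, from the cyclins that switch on CDK1 to the proteins that close the cleavage furrow. They were taken by symbol from a fixed list, and each matched exactly 1 of the 28786 gene IDs measured. All 38 passed the filter on low counts, with no fewer than 32 counts in any library. The members were grouped into 8 roles. RNA came from bone marrow of C57BL/6 mice, wild type and 6 to 8 weeks old, and was measured in 6 libraries of 1500 sorted cells each, 3 labelled TMRM-high and 3 labelled TMRM-low. TMRM is a dye that gathers in mitochondria with their membrane potential. Both groups share the same gate for haematopoietic stem cells (HSCs), which keeps lineage-negative, Sca-1-positive, c-Kit-positive, CD48-negative and CD150-positive cells, and by their labels they differ only in the dye signal. Levels are in CPM, counts divided by the TMM-scaled library size, and a difference is a log2 fold change, positive where TMRM-high was the higher group, given with a standard error (SE).

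Mitosis is driven by CDK1 bound to A and B cyclins, which CDC25 phosphatases activate and which Polo-like and Aurora kinases amplify. Kinetochores tie chromosomes to the spindle, the spindle checkpoint holds anaphase back until all are attached, and the anaphase-promoting complex (APC/C) then destroys cyclins and securin. Long-term HSCs are known to be largely quiescent, and genes of this programme are transcribed mainly in G2 and mitosis, when the DREAM repressor has been replaced by activators that bind CHR elements and by NF-Y, which binds CCAAT boxes.

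The promoters are shown because they hold a feature that the choice of members did not use. RefSeq on GRCm38.p6 gave 34 starts for 32 of the 38 genes, each with 250 bases before and 50 after the start. A CHR element was searched as TTTGAA or TTCGAA and a CCAAT box as CCAAT, both on either strand, and 1 member promoter had a CHR that overlapped a CCAAT box. A CHR was found in 79.4% of member promoters and in 19.2% of all 32851 promoters of that length. A CCAAT box was found in 76.5% of member promoters and in 37.4% of all promoters. Both elements stood together in 70.6% of member promoters, in 7.52% of all promoters and in 5.91% of those of tested genes. The median GC content was 59.3% in member promoters, 52.7% in all promoters and 60.3% in those of tested genes. The 150 bases before the start are printed for 8 genes, 5′ to 3′ on the gene's strand, with CHR elements and CCAAT boxes of either orientation in capitals. Ube2c, Cdk1, Mki67 and Prc1 had higher RNA in TMRM-high libraries and have both elements in this window. Ccnb1 was higher too and has CCAAT boxes alone. Kif11 and Cdc20 did not pass edgeR's test, though DESeq2 called them higher, and have both elements. Pttg1, the 1 gene fitted lower, has neither. Its printed window lies wholly inside the gene's GENCODE span (chromosome 11, 43420250 to 43426251), so it may not be the gene's main promoter. Over the full promoters, 5 of the 32 genes had neither element. Of these, 2 were called higher by edgeR, Birc5 and Mad2l1.
Ube2c, chr2:164769779-164769928, strand +: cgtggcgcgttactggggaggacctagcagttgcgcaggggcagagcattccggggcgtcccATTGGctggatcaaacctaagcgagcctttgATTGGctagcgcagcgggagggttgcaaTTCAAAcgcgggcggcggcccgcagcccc
Cdk1, chr10:69352913-69353062, strand -: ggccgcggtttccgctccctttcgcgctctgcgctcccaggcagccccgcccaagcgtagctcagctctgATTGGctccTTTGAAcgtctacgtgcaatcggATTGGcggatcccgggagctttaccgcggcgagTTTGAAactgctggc
Mki67, chr7:135716380-135716529, strand -: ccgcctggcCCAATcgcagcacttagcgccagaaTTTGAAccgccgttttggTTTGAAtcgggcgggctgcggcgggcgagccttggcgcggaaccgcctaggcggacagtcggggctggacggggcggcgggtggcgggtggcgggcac
Prc1, chr7:80294326-80294475, strand +: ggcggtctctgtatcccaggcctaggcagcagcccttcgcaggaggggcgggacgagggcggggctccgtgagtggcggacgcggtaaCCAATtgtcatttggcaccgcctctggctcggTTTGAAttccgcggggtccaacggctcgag
Ccnb1, chr13:100786487-100786636, strand -: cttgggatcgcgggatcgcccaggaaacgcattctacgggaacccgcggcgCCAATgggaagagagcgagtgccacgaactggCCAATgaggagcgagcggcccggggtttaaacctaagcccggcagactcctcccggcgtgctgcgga
Kif11, chr19:37376232-37376381, strand +: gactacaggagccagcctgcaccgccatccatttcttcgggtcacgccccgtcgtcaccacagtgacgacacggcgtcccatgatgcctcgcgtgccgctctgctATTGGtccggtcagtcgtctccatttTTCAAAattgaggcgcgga
Cdc20, chr4:118437344-118437493, strand -: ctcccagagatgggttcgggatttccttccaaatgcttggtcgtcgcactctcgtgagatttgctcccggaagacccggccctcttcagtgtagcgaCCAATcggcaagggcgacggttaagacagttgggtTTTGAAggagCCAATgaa
Pttg1, chr11:43425982-43426131, strand -: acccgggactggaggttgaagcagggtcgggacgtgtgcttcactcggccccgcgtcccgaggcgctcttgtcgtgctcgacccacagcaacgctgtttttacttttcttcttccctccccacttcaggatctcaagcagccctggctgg

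**Figure D1:**
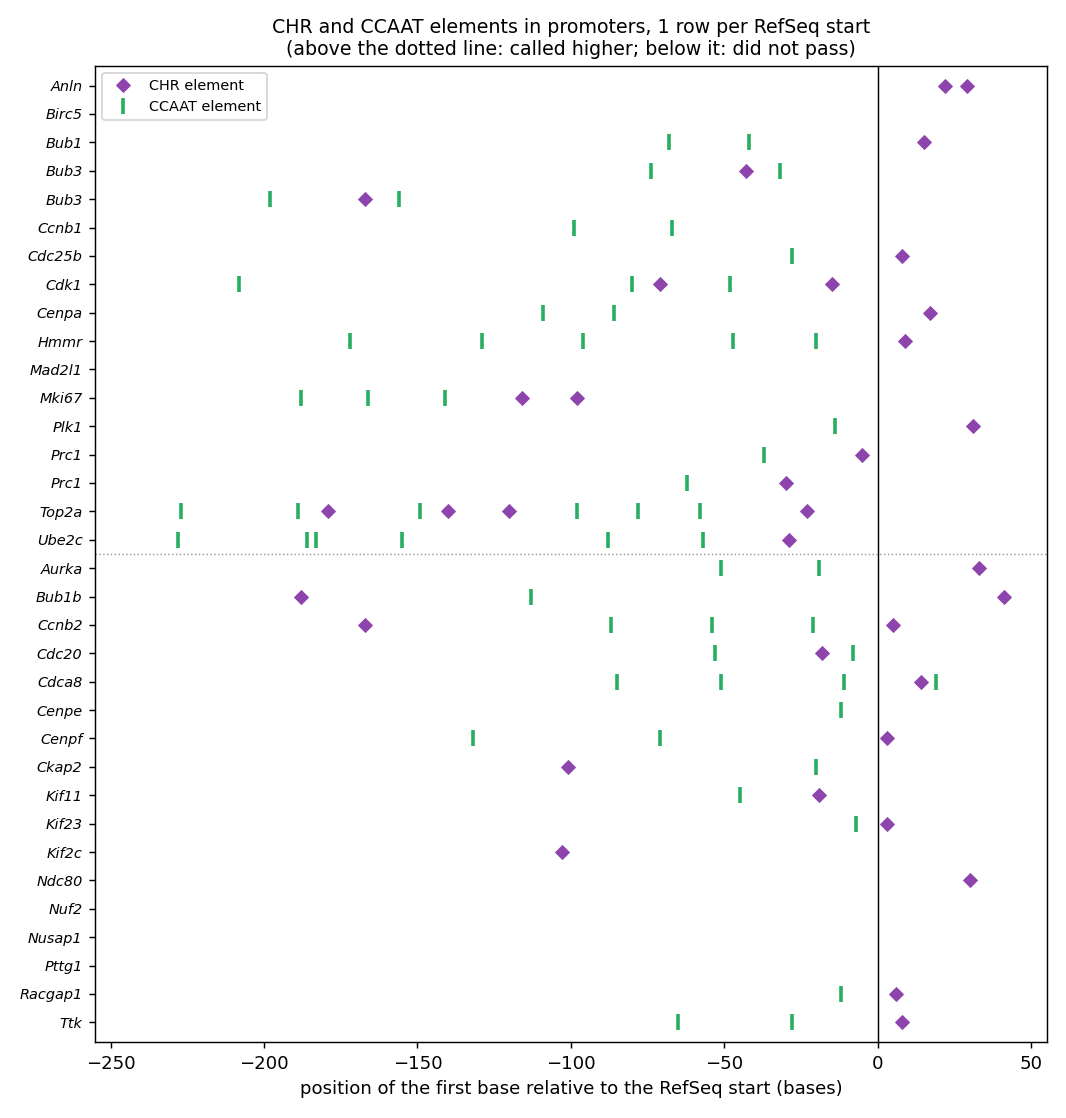
Position of each CHR element (diamond) and CCAAT box (bar) by its first base relative to the RefSeq start, in bases, with 1 row for each of the 34 promoters. Genes above the dotted line were called higher in TMRM-high libraries and those below it did not pass, and most rows of either kind have a CHR close to the start.

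In 67.6% of member promoters a CHR began within 50 bases of the start, against 5.31% of all promoters, a window chosen after the positions were seen. In most of these the CCAAT boxes lay upstream of that CHR, as in Ube2c, where the nearest boxes, at -88 and -57, precede a CHR at -29. Of the 22 genes with both elements in a promoter 11 were called higher, with a median log2 fold change of 0.54, and of the 10 without both 4 were called, with a median of 0.48. A match of letters is not a measured binding site.

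As a group the 38 genes had more RNA in TMRM-high libraries, by a modest margin. Their CPM summed to 4013, 3988 and 3988 in the TMRM-high libraries and to 2696, 2754 and 2912 in the TMRM-low libraries, a ratio of 1.43, and the groups did not overlap. By edgeR's quasi-likelihood test with Benjamini-Hochberg adjustment over all 13662 tested genes, 18 of the 38 were higher, 0 were lower and 20 did not pass. Over all tested genes, 5.84% were called higher and 5.12% lower. Without adjustment, 24 members had an edgeR p below 0.05 in the direction of TMRM-high and 0 in the other. The share of all tested genes at that unadjusted threshold was not counted. This count and those of the lists below at that threshold therefore have no background beside them. DESeq2 called 22 higher and 0 lower, where it called 9.69% of all genes higher. The fitted difference was positive for 37 members, against 47.2% of all tested genes. In 29 members all TMRM-high libraries lay above all TMRM-low libraries, which held for 18.4% of all tested genes. The median log2 fold change was 0.51 over members and -0.03 over all tested genes. Only 4 of the 18 called members differed by at least 2-fold, namely Anln, Cdc25b, Ube2c and Plk1, where 3.18% of all genes were called with such a rise.

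The spread of the groups bears on these calls. The members' median SD of log2(CPM + 1) was 0.063 among TMRM-high replicates but 0.25 among TMRM-low replicates, and the latter was the larger in 36 of 38 genes. Chi-square per degree of freedom over the members, which is near 1 for pure counting error, was 3.88 to 5.33 for pairs of TMRM-high replicates and 28.2 to 63.5 for pairs of TMRM-low replicates. Without TMRM-high replicate 1, 2 or 3, 4, 5 or 4 members were called, beside 1.82%, 1.92% or 1.77% of all genes called higher. With the TMRM-high libraries summed into 1, Ube2c alone was called, beside 0.629% of all genes. Without TMRM-low replicate 1, 2 or 3, 20, 20 or 17 members were called, beside a larger 8.67%, 8.64% or 9.99% of all genes called higher. Incenp lost its call without replicate 1 (adjusted p = 0.0504) and without replicate 3 (0.0505), Bub1 without replicate 1 (0.0569) and replicate 2 (0.0662), and Ccnb1 (0.0572) and Birc5 (0.0653) without replicate 3, all by edgeR. The median member difference stayed between 0.50 and 0.53 in every setting tried. The labels do not tie the replicates to separate animals, so each p-value is relative to the spread of these libraries alone, which may be technical.

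**Figure D2:**
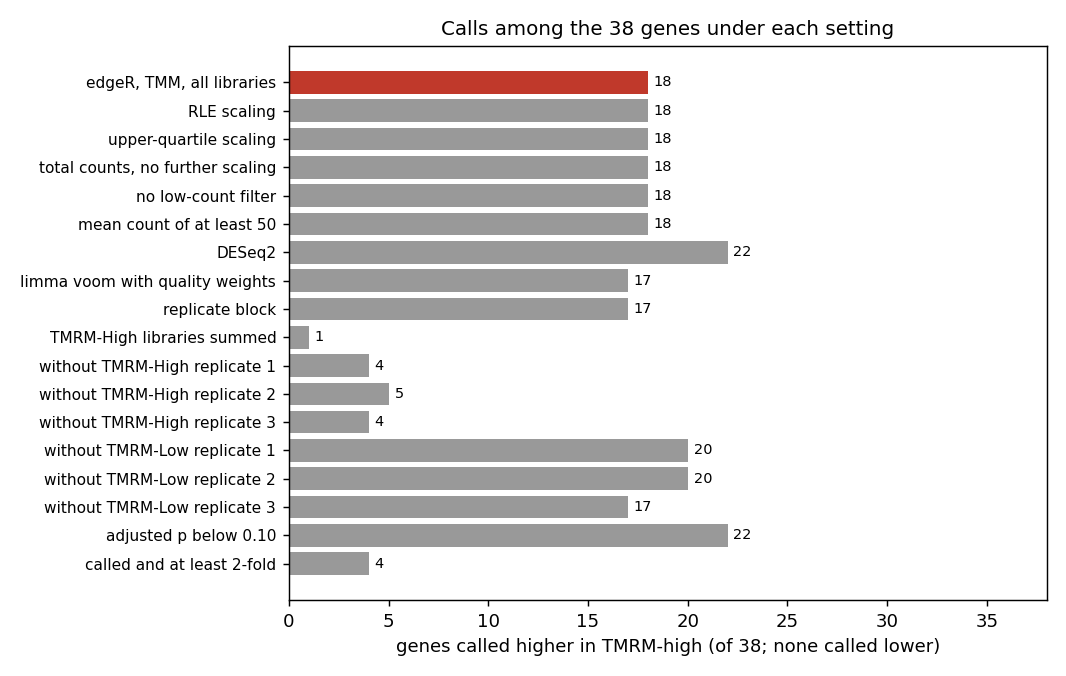
Number of the 38 genes called higher in TMRM-high libraries under each setting (bars, 0 to 38 genes), with the reported setting in red. Scaling and filters left 18 calls, leaving out a TMRM-high library left 4 or 5, and summing these libraries left 1.

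**Figure D3:**
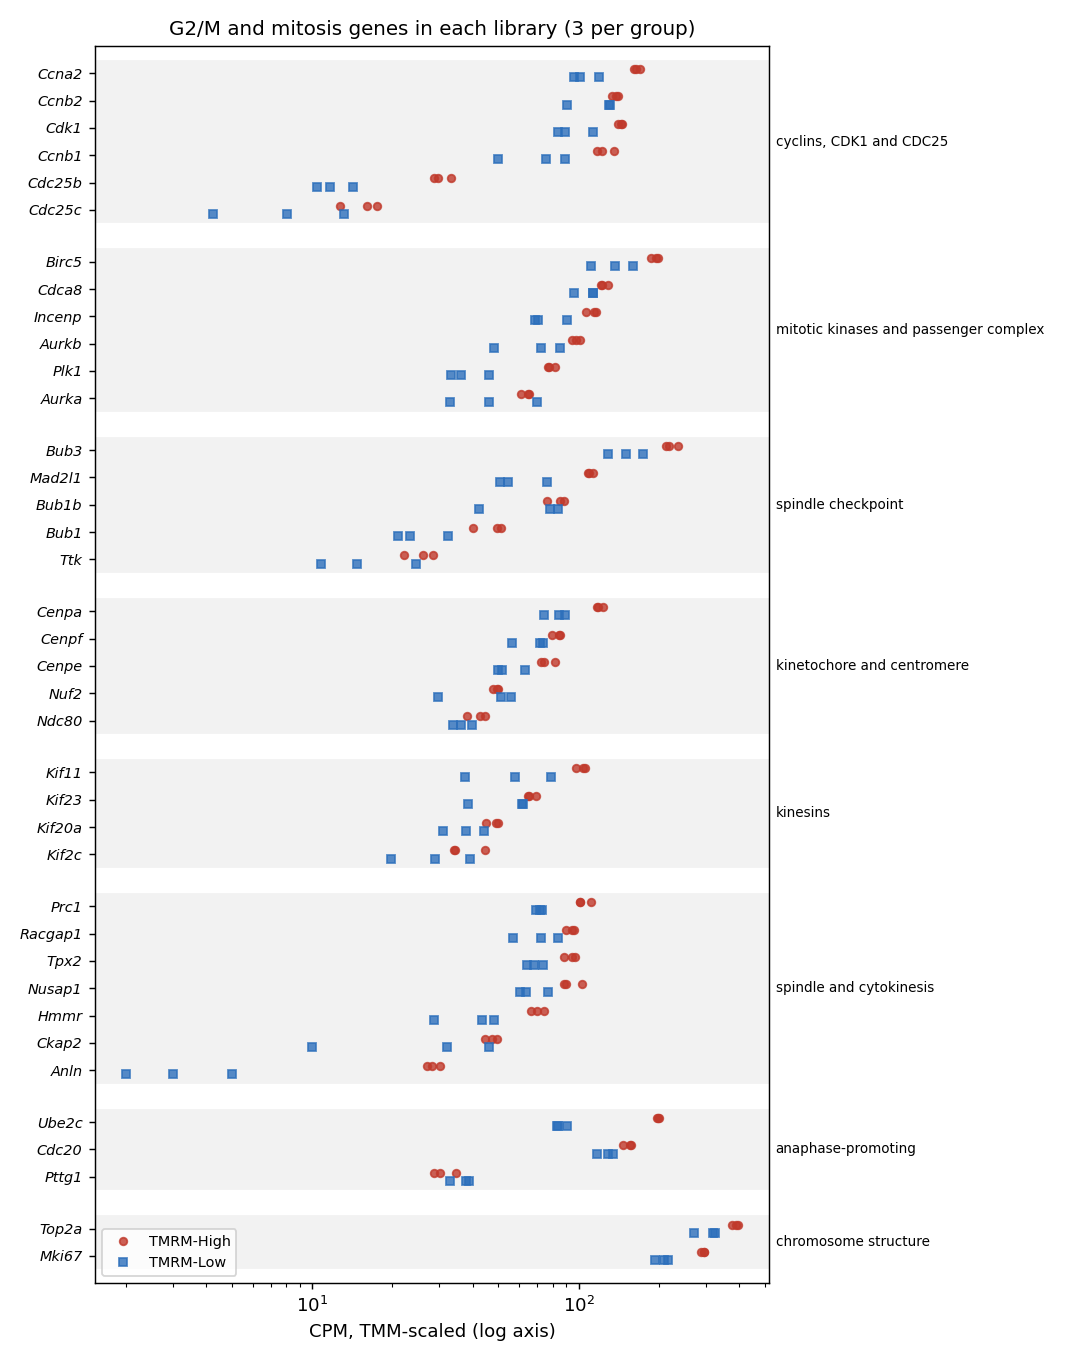
CPM of each gene in each library on a log axis, with circles for the 3 TMRM-high and squares for the 3 TMRM-low libraries, grouped by role. The circles lie close together while the squares spread, and in Anln, Ube2c and Cdc25b the groups are far apart.

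The genes that start mitosis rose in part. Of the 6 cyclin, CDK1 and CDC25 genes, 4 rose and 2 did not pass. Ccna2, which encodes the cyclin of S phase and early mitosis, was at 161, 164 and 171 CPM in TMRM-high libraries and at 96.2, 119 and 101 CPM in TMRM-low libraries. All of the former lay above all of the latter, and the log2 fold change was 0.65 (SE 0.101, adjusted p = 0.00718). Ccnb1, the main mitotic cyclin gene, was at 118, 123 and 136 CPM against 49.9, 88.9 and 75.7 CPM (0.81, SE 0.200, edgeR adjusted p = 0.0414). Its fellow B cyclin gene Ccnb2 was at 134, 141 and 139 CPM against 90.7, 130 and 131 CPM. TMRM-low replicate 1 was low for Ccnb2 while the other TMRM-low libraries came near the TMRM-high values, and the difference did not pass (0.23, 95% interval -0.11 to 0.57). Cdk1, the kinase they activate, was at 145, 144 and 141 CPM against 88.9, 83.9 and 113 CPM (0.59, SE 0.123, edgeR adjusted p = 0.0235).

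Of the phosphatase genes that activate CDK1, Cdc25b rose the most of this role. It was at 33.2, 29.6 and 28.6 CPM in TMRM-high libraries and at 11.7, 10.4 and 14.2 CPM in TMRM-low libraries. The groups were well apart, with a fold change of 2.52 (log2 1.33, SE 0.218, edgeR adjusted p = 0.00862). Cdc25c was the least abundant of the 38 genes by mean CPM, at 12.7, 17.5 and 16.0 CPM against 13.2, 8.05 and 4.25 CPM. The groups overlapped, and its difference of 0.86 had an interval of -0.14 to 1.85.

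Among the mitotic kinases and the chromosomal passenger complex, 3 of 6 genes rose. Plk1, the Polo-like kinase gene (chromosome 7, 122159439 to 122169873 on GRCm38), was at 81.5, 77.2 and 76.7 CPM in TMRM-high libraries and at 46.2, 33.3 and 36.1 CPM in TMRM-low libraries. That is a fold change of 2.04 (log2 1.03, SE 0.155, edgeR adjusted p = 0.00615), and without TMRM-high replicate 1 the adjusted p was 0.051. The Aurora kinase genes did not pass. Aurka, whose kinase works at spindle poles, was at 60.6, 64.3 and 65.1 CPM against 70.0, 46.1 and 32.9 CPM, so that TMRM-low replicate 1 was above every TMRM-high library. Aurkb, the catalytic subunit of the passenger complex, was at 94.2, 98.0 and 102 CPM against 85.3, 72.0 and 48.3 CPM, without overlap (0.51, edgeR adjusted p = 0.148).

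The partners of Aurora B in that complex split. Birc5, which encodes survivin, was at 199, 187 and 195 CPM against 160, 111 and 138 CPM, a difference of 0.51 (SE 0.130, edgeR adjusted p = 0.0464). Incenp, the scaffold gene, was at 116, 114 and 107 CPM against 68.4, 90.5 and 70.5 CPM (0.56, SE 0.130, edgeR adjusted p = 0.0342). Cdca8, which encodes borealin, was at 129, 122 and 123 CPM against 95.9, 113 and 113 CPM. Its groups did not overlap, but the difference of 0.21 did not pass (95% interval -0.01 to 0.44).

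Of the 5 spindle checkpoint genes, 3 rose. Mad2l1, whose product inhibits CDC20 at unattached kinetochores, was at 109, 109 and 113 CPM in TMRM-high libraries and at 50.9, 54.5 and 76.0 CPM in TMRM-low libraries. The log2 fold change was 0.87 (SE 0.160, edgeR adjusted p = 0.0149), and the lowest TMRM-high library lay well above the highest TMRM-low library. Bub3, a subunit shared by checkpoint complexes, was at 237, 214 and 219 CPM against 151, 130 and 175 CPM (0.56, SE 0.115, edgeR adjusted p = 0.0227). Bub1, a checkpoint kinase gene, was at 49.4, 50.9 and 40.3 CPM against 20.9, 23.3 and 32.4 CPM (0.87, SE 0.212, edgeR adjusted p = 0.0397). Bub1b, which encodes BUBR1, and the kinase gene Ttk had groups that overlapped. Bub1b was at 76.3, 85.0 and 88.1 CPM against 42.3, 77.9 and 83.8 CPM, with only TMRM-low replicate 1 apart from the rest. Ttk had a difference of 0.61 with an interval of -0.14 to 1.36.

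Of the 5 kinetochore and centromere genes 1 rose, Cenpa, which encodes the histone variant that marks centromeres. It was at 123, 118 and 118 CPM against 74.4, 89.1 and 84.6 CPM, a log2 difference of 0.53 (SE 0.101, edgeR adjusted p = 0.0156). Cenpe, a kinetochore motor gene, was at 72.6, 74.4 and 81.7 CPM against 51.6, 62.8 and 49.7 CPM (0.48, edgeR adjusted p = 0.0621). Cenpf was at 84.7, 84.8 and 79.3 CPM against 71.9, 56.0 and 73.5 CPM (0.30, edgeR adjusted p = 0.202). These 2 genes kept the groups apart without passing. Ndc80 and Nuf2, which encode partners in the complex that grips microtubules, had differences of 0.19 (95% interval -0.17 to 0.54) and 0.10 (-0.44 to 0.65). Nuf2 was at 49.9, 47.7 and 49.4 CPM against 29.6, 51.2 and 56.0 CPM, and without TMRM-low replicate 1 its difference became -0.12.

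None of the 4 kinesin genes passed edgeR's test, while 1 had an unadjusted p below 0.05 and 1 was called by DESeq2 and by limma voom. Kif11 encodes the motor that pushes spindle poles apart. It was at 106, 104 and 97.5 CPM in TMRM-high libraries and at 37.3, 78.6 and 58.0 CPM in TMRM-low libraries. The groups did not overlap, but the TMRM-low values ranged widely (log2 fold change 0.82, SE 0.242, edgeR adjusted p = 0.0724). Kif23, a motor of the central spindle, was at 64.8, 69.5 and 65.0 CPM against 38.3, 61.1 and 62.1 CPM. Its difference of 0.30 and those of Kif20a (0.34) and Kif2c (0.36) had intervals that include 0.

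Spindle and cytokinesis genes held the largest change, and 4 of 7 rose. Anln encodes anillin, a scaffold of the contractile ring (chromosome 9, 22332012 to 22389188). It was at 26.9, 30.2 and 28.1 CPM in TMRM-high libraries and at 3.01, 2.00 and 5.01 CPM in TMRM-low libraries. The fold change was 8.47 (log2 3.08, SE 0.372, edgeR adjusted p = 0.00225), far above the other members, of which Cdc25b came next. The TMRM-low values rested on 52, 32 and 92 counts. With a library left out, the log2 fold change of Anln ran from 2.82 to 3.50 and kept its call. With the TMRM-high libraries summed it was 3.08 with an adjusted p of 0.197.

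The other genes of this role differed by less. Prc1, which bundles microtubules of the central spindle, was at 101, 111 and 101 CPM against 71.9, 69.1 and 73.0 CPM, a log2 difference of 0.55 (SE 0.0973, edgeR adjusted p = 0.0118). Hmmr was at 69.7, 66.5 and 74.4 CPM against 48.3, 28.6 and 43.3 CPM (0.81, SE 0.201, edgeR adjusted p = 0.0429). Tpx2, an activator of Aurora A, was at 96.6, 94.4 and 88.2 CPM against 67.8, 64.3 and 73.7 CPM (0.44, SE 0.106, edgeR adjusted p = 0.0378). In each of these 3 genes the groups stayed apart. Nusap1 (0.49, adjusted p = 0.0555, edgeR) and Racgap1 (0.40, adjusted p = 0.146, edgeR) did not pass. Ckap2 was at 49.5, 47.1 and 44.7 CPM against 10.01, 32.0 and 46.2 CPM, so that its 3 TMRM-low libraries spanned a wider range than the groups' difference.

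Of the 3 genes that act with the APC/C, Ube2c rose and Cdc20 and Pttg1 did not pass. Ube2c encodes the E2 enzyme that works with the APC/C to begin ubiquitin chains (chromosome 2, 164769898 to 164778822). It was at 200.1, 198 and 198 CPM in TMRM-high libraries and at 83.8, 82.9 and 90.8 CPM in TMRM-low libraries. Both groups were tight and far apart, with a fold change of 2.31 (log2 1.21, SE 0.0782, edgeR adjusted p = 0.000104). Of the 38 genes it had the smallest adjusted p, and it was the 1 member called in every setting, with adjusted p up to 0.0389. Cdc20, the activator of the APC/C, was at 156, 147 and 158 CPM against 129, 117 and 134 CPM (0.28, SE 0.0857, edgeR adjusted p = 0.0823). Pttg1 encodes securin, which the APC/C destroys to release separase. It was at 34.6, 28.8 and 30.1 CPM against 38.8, 37.7 and 33.0 CPM, and it was the 1 member fitted lower (-0.23, 95% interval -0.61 to 0.15).

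Both genes of chromosome structure rose by a small margin. Mki67, which encodes the Ki-67 coat protein of mitotic chromosomes, was at 295, 289 and 295 CPM in TMRM-high libraries and at 216, 210.1 and 194 CPM in TMRM-low libraries. The fold change was 1.42 (SE 0.0679 on the log2 scale, edgeR adjusted p = 0.00359). Top2a, the topoisomerase that untangles sister chromatids, was at 397, 390.0 and 378 CPM against 325, 271 and 321 CPM, a log2 difference of 0.35 (SE 0.0811, edgeR adjusted p = 0.0352). Mki67, Anln and Ube2c were called with any 1 library left out. Top2a lost its call when any 1 of the TMRM-high libraries was left out (edgeR adjusted p up to 0.157).

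**Figure D4:**
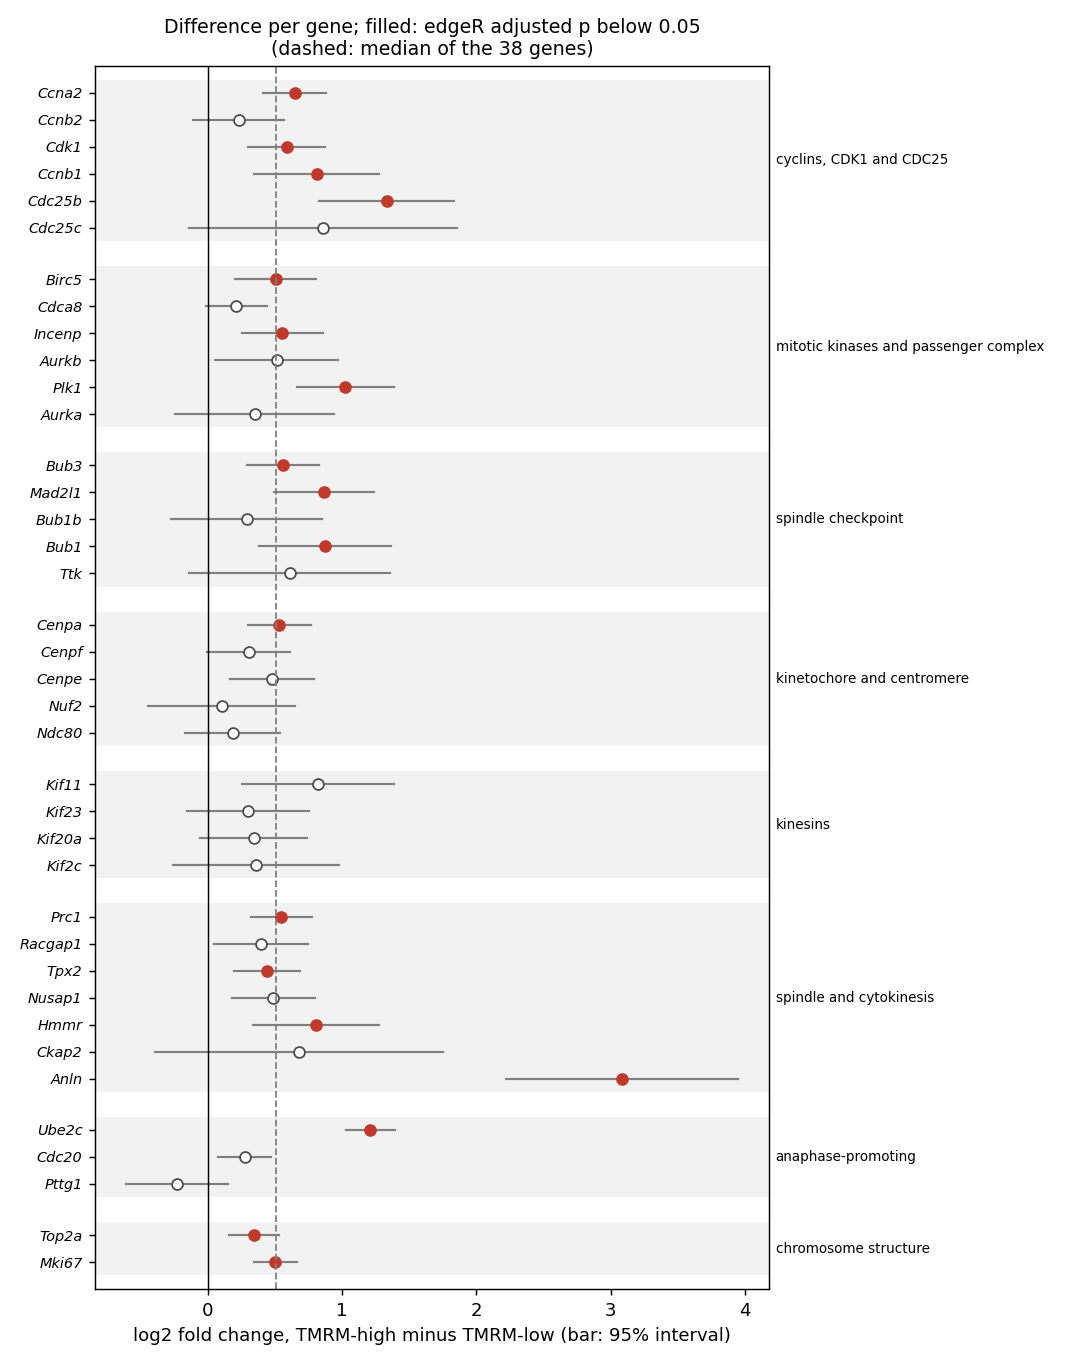
Log2 fold change of each gene, TMRM-high minus TMRM-low, with its 95% interval, grouped by role, filled where edgeR's adjusted p was below 0.05. All points but that of Pttg1 lie to the right of 0, most near the median of 0.51, and Anln stands apart at 3.08.

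Calls were counted by level, with no test across levels. Of the 13 members with the highest mean CPM 10 were called, with a median log2 fold change of 0.53 and a median SE of 0.101. Of the 12 in the middle 4 were called, with a median of 0.48 and a median SE of 0.153. Of the 13 with the lowest mean CPM 4 were called, with a median of 0.61 and a median SE of 0.235. Per kilobase of merged GENCODE exons, Ccnb2 (90.0 CPM per kb), Cdc20 (82.2) and Ube2c (76.4) had the highest levels of the members in TMRM-high libraries. In TMRM-low libraries Ccnb2 (76.7) and Cdc20 (67.9) were again the highest, and Ube2c (33.0) stood below Birc5 (40.0) and Top2a (33.9).

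The members did not move together among the TMRM-low libraries. TMRM-low replicate 3 was the highest of the group in 19 of 38 genes and the lowest in 8. Replicate 1 was the highest in 11 and the lowest in 15, and replicate 2 the highest in 8 and the lowest in 15. Aurka and Ckap2 had opposite orders, with replicate 1 highest for Aurka and lowest for Ckap2.

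Some members share sequence with pseudogene copies elsewhere in the genome, and others overlap a gene on the opposite strand. Of the 31-base words of Ccnb1 transcripts, 27.8% occur in another gene, and the shares were 26.7% for Cdc20, 26.7% for Kif20a, 25.3% for Ube2c and 18.7% for Plk1. Ube2c overlaps the troponin gene Tnnc2 on the other strand, which had 4 counts in 1 library and none elsewhere. The pseudogenes Ccnb1-ps, Gm7856 (a copy of Cdc20 sequence) and Plk-ps1 had 0 to 4 counts in any library. Kif20a overlaps Cdc23 on the other strand by 1271 exonic bases, and Cdc23 was at 66.5 and 70.1 CPM in TMRM-high and TMRM-low libraries. Counts of these 2 genes therefore cannot be fully separated. The same limit holds for called members. Ccna2 overlaps Exosc9 by 510 exonic bases, and Exosc9 was at 73.7 and 59.1 CPM in TMRM-high and TMRM-low libraries. Prc1 overlaps Rccd1 by 911 exonic bases, and Rccd1 was at 5.22 and 5.56 CPM.

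Other genes of the cell cycle were read from lists drawn up from general knowledge. Of 52 other G2/M genes, 11 rose, 0 fell and 41 did not pass, with a median log2 fold change of 0.59. DESeq2 called 25 of them higher and 1 lower, and 28 had an unadjusted p below 0.05 upward and 1 downward. Cks2, which encodes a small subunit of CDK complexes, was at 416, 417 and 422 CPM in TMRM-high libraries and at 143, 153 and 121 CPM in TMRM-low libraries. The difference was 1.59 (SE 0.0927, edgeR adjusted p = 8.24e-05). Its relative Cks1b (0.50, SE 0.0612) and the mitotic kinase gene Pbk (0.95, SE 0.132) rose as well. Of these 52 genes 51.2% of those with a RefSeq promoter had CHR and CCAAT elements in the same promoter, beside 68.8% of the members and 8.61% of all genes.

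Condensin and cohesin genes rose in 6 of 19 cases, with a median of 0.46 and 0 lower. DESeq2 called 10 of these 19 higher and 1 lower, and 11 had an unadjusted p below 0.05 upward and 1 downward. Rad21, the cohesin subunit cut by separase, was at 182, 178 and 188 CPM against 105, 115 and 106 CPM, a log2 difference of 0.76 (SE 0.0785, edgeR adjusted p = 0.000966). The condensin ATPase genes Smc4 (0.58, SE 0.0710) and Smc2 (0.47, SE 0.0713) rose too.

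Subunits of the APC/C itself and its regulators had a median of -0.01. Of 17 genes 1 rose, Ube2s, the E2 enzyme that extends ubiquitin chains after UBE2C has begun them. It was at 387, 371 and 385 CPM against 270.0, 255 and 237 CPM (0.58, SE 0.0679, edgeR adjusted p = 0.00175). None of the 17 was lower by edgeR or DESeq2, while 1 had an unadjusted p below 0.05 downward. Of 23 genes of DREAM, MuvB, E2F and NF-Y, 1 rose, E2f8, a repressor of the E2F family (0.77, SE 0.200, edgeR adjusted p = 0.0488), and the median was 0.21. DESeq2 called 4 of these 23 higher and 1 lower.

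Inhibitors of mitotic entry were among the genes that rose. Of 14 G2 checkpoint genes 5 were higher and 0 lower, by edgeR as by DESeq2, and 6 had an unadjusted p below 0.05 upward and 0 downward. Gadd45a, a stress gene that inhibits CDK1, was at 43.7, 39.7 and 45.5 CPM against 16.7, 12.3 and 13.2 CPM, a log2 difference of 1.61 (SE 0.197, edgeR adjusted p = 0.00217). The CDK inhibitor gene Cdkn1a, which encodes p21, was at 173, 171 and 174 CPM against 91.6, 113 and 121 CPM (0.67, SE 0.112, edgeR adjusted p = 0.00984). Ccng2 rose by 0.77 (SE 0.138). Of 30 G1/S and replication genes 3 rose and 1 fell, with a median of 0.15, and the gene that fell was Mcm5, of the replicative helicase (-0.27, SE 0.0685, edgeR adjusted p = 0.0429). Whether these lists differ from the 38 genes was not tested.

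**Figure D5:**
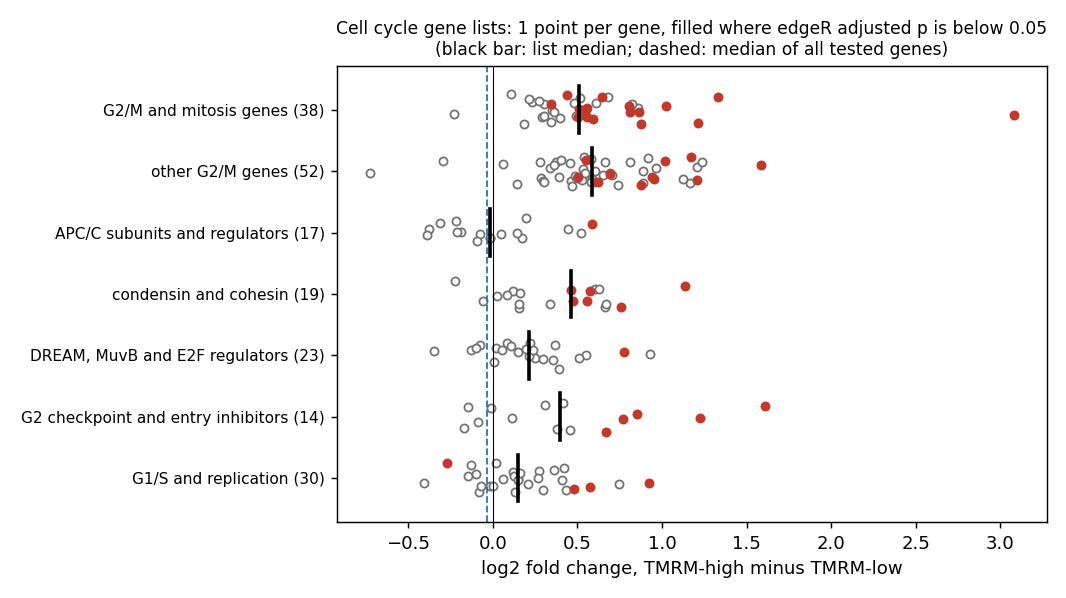
Log2 fold change, TMRM-high minus TMRM-low, of each gene of the 38 and of 6 other cell cycle lists, with 1 point per gene, filled where edgeR's adjusted p was below 0.05, and a black bar at each median. The medians are 0.51 for the 38 genes, 0.59 for other G2/M genes, -0.01 for the APC/C and 0.15 for G1/S genes, and the dashed line is the median of all tested genes at -0.03.

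Of the marker lists of other marrow cells, all but that of T and NK cells had more genes called higher than lower in TMRM-high libraries. Of 14 granulocyte and monocyte progenitor genes 11 were higher and 1 lower. Their CPM summed to 15130 to 15534 in TMRM-high and to 3675 to 4018 in TMRM-low libraries, with no gene at 0. The gene that was lower was Ly86 (log2 fold change -1.17), and Csf1r was fitted lower without passing (-0.26). Of 13 B lineage precursor genes 10 were higher and 1 lower, with sums of 840 to 864 and 443 to 475 CPM, and Vpreb2 was at 0 in each TMRM-low library. Of 13 tested erythroid precursor genes 7 were higher and 1 lower, and the list summed to 619 to 645 and 641 to 772 CPM, and Rhd and Slc4a1 were each at 0 in 1 TMRM-low library. Mast cell and basophil genes summed to 448 to 456 and 178 to 198 CPM with 4 of 7 higher, with Prss34, Ms4a2 and Prg2 each at 0 in 1 TMRM-low library. Megakaryocyte genes summed to 493 to 506 and 133 to 182 CPM with 3 of 7 tested higher, and Gp6 was at 0 in libraries of both groups. T and NK genes summed to 607 to 617 and 334 to 414 CPM, with 1 of 7 tested higher and 3 lower. The gene that was higher, Nkg7, made up most of that sum, and Cd3e was at 0 in TMRM-low replicate 3. Sums were also taken without the most abundant gene of a list, a choice made after the values were seen. Without Nkg7 the T and NK genes summed to 54.0 to 58.4 CPM in TMRM-high and to 142 to 176 CPM in TMRM-low libraries, the opposite direction. Without Car2, the 1 erythroid gene that was lower, the erythroid genes summed to 304 to 336 and 119.95 to 157 CPM, without overlap. Without Dntt, the 1 B lineage gene that was lower, the B lineage genes summed to 574 to 588 and 52.3 to 59.0 CPM. The other lists kept their direction without their most abundant gene. HSC genes ran the other way, with 6 of 12 lower and 0 higher (0 by DESeq2 and 0 at an unadjusted p below 0.05), and sums of 368 to 380 and 773 to 802 CPM. Of the HSC genes, all were detected in every library, but Procr was at only 3.57 ± 0.304 CPM in TMRM-high libraries (SD, n = 3). The part of these cell types in the difference of mitotic genes was not tested. In such bulk samples more dividing cells and more RNA per dividing cell cannot be told apart.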

How the data were processed

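Per the labels' protocols, 1500 sorted cells per library gave RNA for full-length low-input cDNA, which was amplified in 13 cycles and sequenced as paired reads of 150 bases, with no molecular identifiers named. The submitters' processing notes name Salmon (as version 0.03.1), Trim Galore 0.5.0 and GRCm38, per the labels. How the authors summed transcripts to genes, and with which annotation, is not given in the sources used here. Their deposited table holds estimated counts, 1 row per gene and not scaled to depth, with totals of 14270069 to 22070594 per library. They were rounded, filtered by filterByExpr (13662 genes), scaled by TMM and tested with edgeR 4.0.16 (glmQLFit, glmQLFTest, robust, two-sided) in R 4.3.3, with the group as the only term and calls at an adjusted p below 0.05. The SE is the log2 fold change divided by the square root of F, and 95% intervals use it with the fit's degrees of freedom. Symbols matched 27728 IDs, and positions are from GENCODE M21 on GRCm38. The genes named follow a rule: in each role at most 4 called members, by smallest p, and at most 2 abundant ones that did not pass, and at most 3 called genes of each other list; other members are named to account for all 38. The members and lists were chosen with earlier results of these data known. Other settings tried were scaling by RLE, by the upper quartile or by totals, no filter or a mean of 50 counts, limma 3.58.1 voom, DESeq2 1.42.0, a replicate block, other thresholds, TMRM-high libraries summed, and each library left out. Promoters are RefSeq's on GRCm38.p6. The fit was tested on simulated data.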

Additional observations from a re-analysis of the deposited data

How the results depend on the processing

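The 18 member calls became 1 with the TMRM-high libraries summed and 4 with a 2-fold minimum, and ran from 4 to 20 with 1 library left out. They were 17 to 22 in the other settings, and 0 members were lower in all settings. Of the other cell cycle genes 27 were higher, 50 with DESeq2, 42 at an adjusted p below 0.10, 7 with a 2-fold minimum, 1 with the TMRM-high libraries summed, and 9 to 42 with 1 library left out. The count of these called lower was 1, or 4 with DESeq2, 2 at an adjusted p below 0.10, 0 with no filter, a replicate block, a 2-fold minimum or the libraries summed, and 0 to 2 with 1 library left out. With 1 library left out, Nuf2 ran from -0.12, without TMRM-low replicate 1, to 0.28. The cause was not tested. Where a TMRM-high library is left out or these are summed, fewer samples enter the fit. With 1 summed library, the lone sample is assumed to vary like the TMRM-low libraries.

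Over the single members, 518 of the results under alternatives kept their direction and their side of the threshold, 69 lost a call, 20 gained one and 1 changed sign. The summed CPM ratio of members, 0.52 on the log2 scale, ran from 0.51 to 0.54 under the other scalings. Whether the replicate numbers pair the libraries could not be decided, since all correlations of their deviations were close to 0. Same-numbered libraries correlated at -0.007 to 0.012, and differently numbered ones at -0.019 to 0.00742. TMRM-high replicates 2 (0.012) and 3 (0.0116) correlated best with their own number, and replicate 1 did not. With the replicate block 17 members were higher, of which 16 were among the 18, Bub1 and Tpx2 lost their calls and Kif11 gained one. Intervals and calls are limited by 3 libraries per group.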
